A study of Mus musculus with 38 samples.

Results

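CD8bm1 is an alloreactive conventional CD8 T cell clone from the mouse, one that responds to the tissue antigens of another individual. Its response to anti-CD3 was followed on 8 of the 38 Affymetrix arrays of the series: the 4 titled activated CD8bm1 and the 4 titled dormant CD8bm1. The unstimulated cells are labelled dormant; their cell cycle genes and several activation genes were nonetheless high, as given below. The activated cells had spent 14 h on plastic coated overnight with the antibody 145-2c11 at 0.5 ug/ml, which binds the CD3 chains of the T cell receptor. All cells were kept in RPMI medium, and each array took 100 ng of total RNA. The other 30 arrays hold the clones sAg1 and sAg3, labelled CD8IL13+, and 8uvmo-2 and 8uvmo-3, labelled CD8IL13-, in the same states. CD8bm1 is 1 clone, so its values describe this cell line. Whether the 4 arrays of a state stand for separate cultures is not given, so a p-value here weighs a difference against array-to-array spread that may be purely technical. In a bulk sample, fewer cells expressing a gene and less RNA per cell cannot be told apart.

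In a CD8 T cell, CD3 ligation starts kinase cascades that switch on transcription factors of the Egr, Nr4a, AP-1, NFAT and NF-kB families. These act on genes for cytokines, chemokines and surface receptors, and also on genes for phosphatases that damp the signal. Genes for RGS proteins, which act on G proteins, are induced as well. Cytotoxic T cells store granzymes and perforin in granules, and they carry serpins that shield them from leaked granzyme. Resting T cells express homing receptors and quiescence factors that are usually shut down when the receptor is engaged. MicroRNA genes respond as well, among them the precursors of miR-155 and miR-146a.

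The arrays held transcripts of the labelled cell type. Cd8a lay at 11.46 to 11.71 (log2 signal as deposited) on the dormant and at 11.79 to 12.06 on the activated arrays, and Cd3e, a chain of the receptor, at 13.00 to 13.36 and 12.44 to 12.60. Cd4, the coreceptor of helper T cells, stayed between 5.98 and 6.79. Values below 7 are treated here as near background, although no background was measured. Of 26 markers of macrophages and dendritic cells, Cd68, the integrin gene Itgax and H2-Eb1 reached 7 in either state. Of 15 B cell markers only Ebf1 did, of 17 stromal and epithelial markers 4 did, and of 13 erythroid and granulocyte markers 2 did. The log2 of the summed signal of each list was 11.78 to 12.02 on dormant and 11.54 to 11.66 on activated arrays for macrophages and dendritic cells, and 9.63 to 9.77 and 10.41 to 10.57 for B cells. It was 10.15 to 10.37 and 10.86 to 10.95 for stromal and epithelial markers, and 9.27 to 9.45 and 9.87 to 9.97 for erythroid cells and granulocytes. As deposited, weak signals stood higher in general after activation, by a median of 0.59 for probe sets with a mean of 5 to 6. After centring each array on its median, the median differences of the 4 lists in this order were 0.146, 0.075, 0.305 and 0.133. The part of other cells in the results was not tested. Arrays of the dormant state correlated with each other at 0.9877 to 0.9958 across probe sets, arrays of the activated state at 0.9961 to 0.9975, and arrays across the states at 0.963 to 0.9759.

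The median of an array was 6.58 to 6.68 in the dormant and 7.03 to 7.08 in the activated state. The shift was largest at weak signals. Probe sets with a mean of 5 to 6 were 0.59 higher in the middle of their distribution after activation, and those above 10 were 0.095 lower. Differences below are therefore given after centring each array on its median, which removes 0.408 from every deposited difference and leaves probe sets above 10 with a median difference of -0.502. A probe set was called at an adjusted p under 0.05 and a log2 difference of at least 1. Because the scale decides many calls, the number called on all 5 scalings compared (centred, as deposited, quantile, cyclic loess, centred on bright probe sets) is given as well.

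Of 23410 probe sets with a gene name, 222 were called higher in activated CD8bm1 (0.948%) and 1620 lower (6.92%), 7.87% in all. On every scaling 186 were called higher (0.795%) and 550 lower (2.35%). The split between rises and falls depended on the scaling. It was 1068 higher and 626 lower on the deposited values, 417 and 806 after quantile normalization, 373 and 954 after cyclic loess, and 1297 and 566 after centring on bright probe sets. The centred values of both groups of 4 arrays did not overlap in 13137 probe sets (56.1%), so a gap between the groups was common. Most of the called rises started near background: 142 of the 222 lay below 7 in dormant cells, and 85 of these passed 7 after activation. Most of the called falls were of expressed genes, since 1516 of the 1620 lay at 7 or above in dormant cells. With a mean of 8 to 9, 9 to 10 and above 10, 404 of 2813, 383 of 2535 and 378 of 3147 probe sets were called lower. These are larger shares than that of all probe sets. List counts below are to be read against both.

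**Figure D1:**
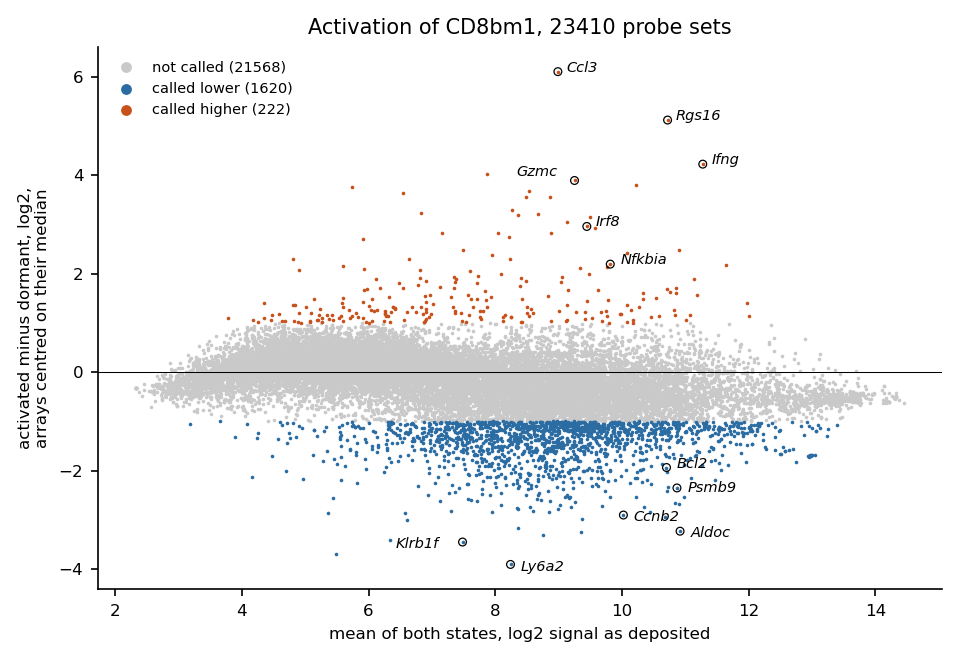
Difference between activated and dormant CD8bm1 (log2, arrays centred on their median) against the mean deposited log2 signal, 1 point for each of 23410 probe sets. The 222 called rises reach 6.10 for Ccl3, the 1620 called falls reach -3.90 for Ly6a2, and the cloud of bright probe sets lies below 0.

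The largest difference in signal was that of a chemokine gene. Ccl3 (probe set 10389231, chromosome 11), which attracts monocytes and T cells, lay at 5.80, 5.73, 5.63 and 5.78 on the dormant arrays and at 12.12, 11.74, 12.57 and 12.54 on the activated ones. No dormant array came near an activated one. It rose by 6.10 (SE 0.174, limma adjusted p = 1.49e-08). Dormant Ccl3 lies below 7, so no fold is given; where background holds up the lower state, the difference is a lower bound, here and for the other genes that start or end below 7. Ccl4, a related chemokine gene on chromosome 11, went from 6.35 to 6.67 up to 10.17 to 10.72 and rose by 3.56 (SE 0.120). Ccl1, the ligand of Ccr8, rose by 2.83 from a dormant level of 5.55. Xcl1, which attracts cross-presenting dendritic cells, rose by 1.91 and reached 7.62 to 8.40. These were the 4 of 22 chemokine ligands called higher on the list, on every scaling, beside 0.795% of all probe sets. None was called lower, and the median difference was 0.374 over the list and -0.053 over all probe sets. Outside the list, Ccl12, a monocyte attractant also encoded on chromosome 11, lay at 6.29 to 6.91 in dormant cells. After activation it lay at 10.44, 9.24, 10.43 and 10.53, with replicate 2 below the rest, and it rose by 3.19 (SE 0.268). Ccl5 was split within the activated group: replicates 1 and 2 lay at 9.07 and 9.08, inside the dormant range of 8.57 to 9.09, and replicates 3 and 4 at 10.66 and 10.57. Its mean difference of 0.56 did not pass (limma adjusted p = 0.203), although it was called higher after quantile, loess or bright-probe-set scaling.

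Most listed cytokine genes were not called, but the share called higher was above that of all probe sets. Ifng (probe set 10366586, chromosome 10), the signature cytokine of cytotoxic T cells, lay at 9.05, 9.05, 8.86 and 8.88 in dormant cells and at 13.66, 13.33, 13.69 and 13.68 after activation. The groups were far apart, and the activated values lay near the highest value on these arrays, 14.6. It rose by 4.22 (limma SE 0.0936, adjusted p = 7.68e-09), 18.7-fold on the centred values. Inhba, which encodes a subunit of activin A, rose by 3.15 from 7.59 to 7.97 up to 10.79 to 11.52. Il10, an inhibitory cytokine, was expressed before stimulation at 8.40 to 8.49 and rose by 1.22 to reach 9.93 to 10.26. Il24, of the same family, rose by 1.32 from a level near background. In all, 4 of 31 interleukin and growth factor genes were called higher, on every scaling, beside 0.795% of all probe sets. The 1 called lower was Il18, which fell by 1.91 from 6.38 to 4.88.

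Other cytokine genes known from activated T cells lay near background in both states in CD8bm1. Il2, the T cell growth factor, lay at 4.93, 4.93, 4.86 and 4.73 in dormant cells and at 5.52, 5.22, 5.57 and 5.18 in activated cells. Il3, a haematopoietic growth factor, reached 5.24 at most, Csf2, which encodes GM-CSF, 5.93 and the type 2 cytokine gene Il13 6.87. Their centred differences were 0.10, 0.10, 0.20 and -0.01, and none passed the test. Tnf was already high in dormant cells, at 10.54, 10.72, 9.79 and 10.52, and stood at 11.47, 11.45, 11.11 and 11.42 after activation. Its difference of 0.56 passed the adjusted p (0.0198) but not the minimum of 1; it was called higher after quantile, loess or bright-probe-set scaling. Lta, its neighbour on chromosome 17, went from 9.20 to 9.95 to 9.04 to 9.22 as deposited, a centred difference of -0.79 that was not called.

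**Figure D2:**
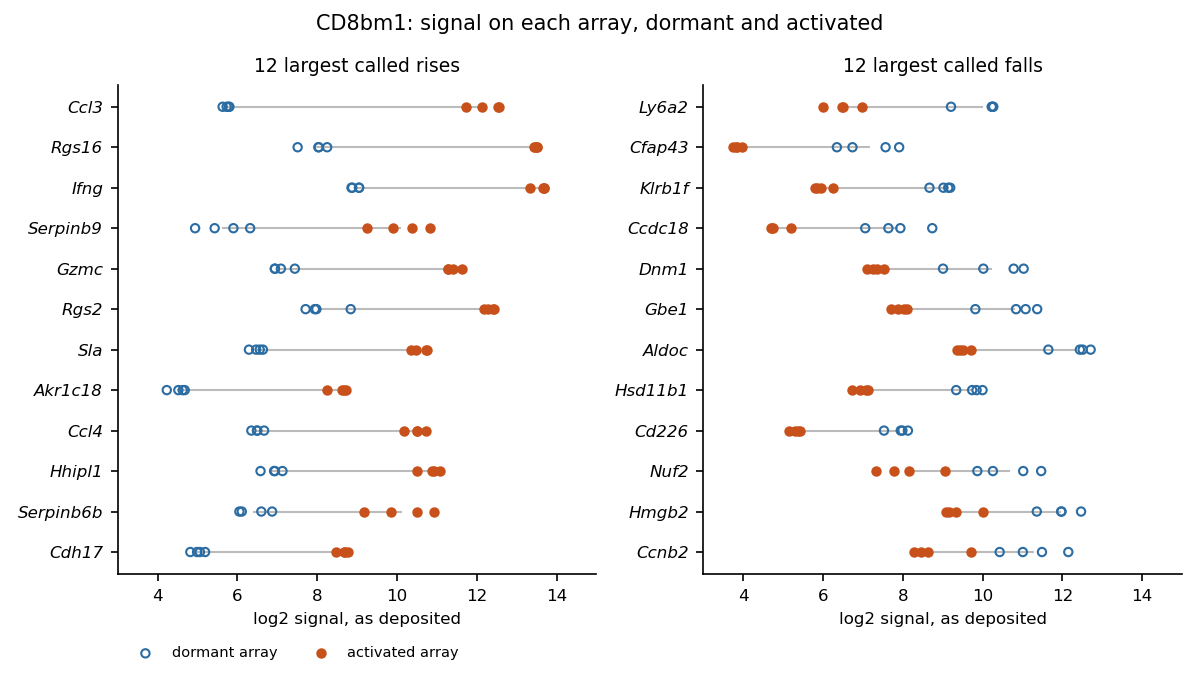
Deposited log2 signal on each dormant (open) and activated (filled) CD8bm1 array for the 12 genes with the largest called rise and the 12 with the largest called fall, with a line between the group means. Ccl3 runs from 5.63 to 5.80 up to 11.74 to 12.57, and in no gene shown do the groups overlap.

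Of 32 immediate early and receptor-induced transcription factors 6 rose and 1 fell, beside 0.948% of all probe sets called higher and 6.92% called lower. Egr1, a zinc finger factor induced through MAP kinases, lay at 6.90, 7.12, 6.66 and 6.81 in dormant cells and at 10.39, 10.49, 10.57 and 10.47 after activation, a rise of 3.20 (SE 0.105, adjusted p = 3.41e-08). Irf8, an interferon regulatory factor, rose by 2.96 and reached 10.99 to 11.27. The orphan nuclear receptor gene Nr4a3 rose by 2.75, with activated arrays at 9.64 to 9.91 above dormant ones at 6.29 to 7.20. Fosb, a partner of Jun in AP-1, rose by 1.90, Egr2 by 1.83 and Nr4a1 by 1.05. All 6 were called higher on every scaling. Nfil3 was called lower (-1.06), a call that holds for the centred values only; on the deposited values the difference was -0.65. Irf4, which T cells induce in proportion to receptor signal strength, was high in both states, at 10.09 to 10.57 and 10.51 to 10.79, with overlapping arrays. Myc lay at 11.21, 11.07, 9.83 and 11.56 in dormant cells and at 11.48 to 12.03 in activated cells; its difference of 0.41 was not called, and dormant replicate 3 was the low array.

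Of 16 listed NF-kB subunits and feedback inhibitors 2 rose on the centred values, beside 0.948% of all probe sets, and 14 were not called. Nfkbia (chromosome 12), which encodes the inhibitor IkB-alpha and is itself an NF-kB target, lay at 8.42, 8.39, 8.86 and 8.39 in dormant cells and at 11.15, 11.07, 11.08 and 11.16 in activated cells. It rose by 2.19 (SE 0.110, adjusted p = 2.93e-07). Nfkb2, which encodes the p100 precursor of the alternative pathway, rose by 1.46 from 8.85 to 10.71. On the deposited values and after quantile, loess or bright-probe-set scaling, 8 of the 16 were called higher each time. Of all 23410 probe sets 1068, 417, 373 and 1297 were called higher on these scalings. The list's median difference was 0.621 centred and 1.03 as deposited. It was 1.014, 1.006 and 1.07 after quantile, loess and bright-probe-set scaling.

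The promoters of Ccl3 and Nfkbia are shown because these genes lead the chemokine and NF-kB groups. Both are the 250 bases before the annotated start, from RefSeq on GRCm38.p6, written along the gene's own strand (minus for both), with matches in capitals. Searched on both strands were the NF-kB consensus, TGANTCA (AP-1), TGACGTCA (the cyclic AMP response element) and GGAAAA (the core bound by NFAT); a match is a string of letters, not a shown binding site.
Ccl3 (chr11:83649379-83649628): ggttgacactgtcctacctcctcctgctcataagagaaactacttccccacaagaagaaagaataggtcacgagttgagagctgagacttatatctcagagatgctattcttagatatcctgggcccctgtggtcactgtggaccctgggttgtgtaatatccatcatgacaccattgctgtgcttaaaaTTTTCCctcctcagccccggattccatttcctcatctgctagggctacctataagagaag
Nfkbia (chr12:55492648-55492897): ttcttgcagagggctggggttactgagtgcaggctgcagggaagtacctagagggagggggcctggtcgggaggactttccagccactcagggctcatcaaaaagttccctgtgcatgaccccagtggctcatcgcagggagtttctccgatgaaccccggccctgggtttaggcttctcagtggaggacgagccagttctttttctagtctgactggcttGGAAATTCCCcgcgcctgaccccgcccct
The Ccl3 window holds 1 NFAT core, 60 bases before the start, and the Nfkbia window 1 NF-kB consensus, 29 bases before it. Of 15614 promoters of measured genes, 19.9% held the NFAT core, 4.16% the NF-kB consensus, 6.11% the AP-1 motif and 2.12% the cyclic AMP element. Of 126 promoters of genes called higher on every scaling the shares were 19.8%, 6.35%, 7.94% and 3.17%.

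Genes listed as feedback regulators, among them RGS genes that act on G proteins, held some of the strongest rises. Rgs16 (probe set 10350733, chromosome 1), which accelerates GTP hydrolysis by G proteins, lay at 8.03, 8.04, 8.25 and 7.51 in dormant cells and at 13.47, 13.43, 13.51 and 13.52 in activated cells. The activated arrays lay close together and far above the highest dormant one. The rise was 5.12 (SE 0.123, adjusted p = 8.99e-09), 34.7-fold on the centred values. Rgs2 and Rgs1, of the same family and chromosome, rose by 3.79 and 1.90. Dusp4, a phosphatase that inactivates MAP kinases, rose by 1.92. In all 6 of 30 feedback regulators were called higher, on every scaling, beside 0.795% of all probe sets. The 3 called lower stand beside 6.92% of all probe sets. Called lower were Rasgrp1 and Rasgrp2, which load Ras with GTP, and Pik3ip1, an inhibitor of PI3 kinase: they fell by 2.40, 1.16 and 1.72, Rasgrp2 on the centred and loess values only. Sla, an adaptor that lowers receptor levels in T cells, was outside the list and rose by 3.68 from 6.29 to 6.64 up to 10.36 to 10.75.

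Of 22 genes of the T cell receptor complex and proximal kinases 5 were called lower and none higher, and 2 of the 5 on every scaling. In dormant cells 18 of the 22 lay at 9 or above. The list's median difference of -0.539 was near the -0.502 of all probe sets with a mean above 10. Of those, 378 of 3147 were called lower. Themis, an adaptor of thymic selection, lay at 10.94 to 11.43 in dormant and 9.60 to 9.76 in activated cells and fell by 1.91. Prkcq, the kinase PKC-theta, fell by 1.5. Cd3g (-1.32) and the adaptor gene Grap2 (-1.13) were called on the centred values only. Cd3e missed the minimum difference at -0.99, and Cd8a (-0.04) and Cd8b1 (-0.27) were not called; the sign of both turned positive on the other 4 scalings. On the deposited values Cd8a stood higher on all 4 activated arrays than on any dormant one.

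The main cytolytic genes were already high before stimulation. Gzmb lay at 13.29 to 13.61 in dormant and 13.88 to 13.93 in activated cells, Gzma at 13.33 to 13.48 and 13.31 to 13.39, and neither was called. Prf1, the pore-forming perforin, went from 12.91, 12.38, 12.39 and 11.74 to 13.48, 13.56, 13.30 and 13.37, a centred difference of 0.67 under the minimum that was called higher on the other 4 scalings. Gzmc (probe set 10420302, chromosome 14) started low. It lay at 6.94, 6.94, 7.44 and 7.09 and then at 11.40, 11.64, 11.28 and 11.28, and rose by 3.89 (SE 0.131, adjusted p = 3.6e-08). Its closely related neighbours Gzmd and Gzmf, named here after their values were seen, already stood at 13.43 and 13.77 in dormant cells, so cross-hybridisation within the cluster was not tested. Of 27 genes of cytolytic granules and death ligands Gzmc was the only one called higher, beside 0.948% of all probe sets. On every scaling 3 were called lower, beside 2.35% of all probe sets. Gzmk fell by 1.58 from 13.00, and the cathepsin gene Ctsw fell by 2.33 from 11.25 to 12.11 down to 9.37 to 10.18. Cd226, an activating receptor that helps killing, fell by 3.00 from 7.53 to 8.13 to a level near background. Fasl, the death ligand, lay at 9.87, 9.65, 8.76 and 9.60 and at 9.59 to 9.89 afterwards and was not called.

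Of 12 measured serpins 3 rose, on every scaling, beside 0.795% of all probe sets, and none fell. Serpinb9, the inhibitor of granzyme B, lay at 5.43, 5.90, 4.94 and 6.32 in dormant cells and at 9.89, 9.25, 10.83 and 10.37 after activation. The groups were apart but each spread over more than 1 log2 unit, and the rise of 4.03 had an SE of 0.361 (adjusted p = 7.05e-06). Serpinb6b and Serpinb9b, from the same cluster on chromosome 13, rose by 3.30 and 1.76, with the same activated arrays high (replicates 3 and 4) and low (replicate 2). The other 9 were not called, and the median difference of the list was 0.037.

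Of 22 inhibitory receptors and ligands 3 rose and 2 fell, beside 0.948% of all probe sets called higher and 6.92% called lower. Ceacam1, an inhibitory adhesion receptor, lay at 8.39, 7.26, 7.23 and 6.70 and then at 10.69, 10.82, 10.66 and 11.25, a rise of 3.05 (SE 0.288). Ctla4, which competes with Cd28 for its ligands, rose by 1.69 and Tigit, a receptor for nectin-like ligands, by 1.31. Slamf7 fell by 1.68 and Klrg1, a marker of terminal effector cells, by 1.25, the latter on the centred values only. Pdcd1, which encodes PD-1, lay at 6.73 to 7.62 and 8.36 to 8.49 and was not called (0.67), though it was on 3 of the other 4 scalings, and neither was Lag3, near background in both states. Of 22 ligands and receptors of the TNF superfamily none was called higher and 2 lower, a share near the 6.92% of all probe sets. Tnfrsf18, the costimulator GITR, fell by 2.54 on every scaling, and Tnfsf9, the ligand of 4-1BB, by 1.37 on the centred and loess values. Tnfrsf9, 4-1BB itself and a usual marker of recent stimulation, stood at 13.42, 13.36, 13.42 and 12.90 in dormant and at 13.25, 13.12, 13.02 and 13.06 in activated cells. Il2ra, the high-affinity IL-2 receptor chain, likewise stood at 12.55 to 12.89 and 13.36 to 13.51. Neither was called.

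Killer lectin-like receptors, which read class I and stress ligands, rose in 4 of 19 and fell in 2. Of all probe sets 0.948% were called higher and 6.92% lower. Of the 2 falls 1 was called on every scaling and the other on the centred values only. Klrk1, the activating receptor NKG2D, lay at 7.18, 6.78, 6.91 and 7.0 in dormant cells and at 8.82, 8.72, 8.92 and 9.16 in activated cells and rose by 1.53 (SE 0.121). Klrc3 and Klrc1, of the NKG2 family that pairs with CD94, rose by 1.51 and 1.17, and Klri2 by 1.05; activated Klrc3 stayed below 7. All 4 are encoded on chromosome 6 and were called on every scaling. Klrb1f, from the same chromosome, fell by 3.45 from 8.67 to 9.19 down to 5.80 to 6.25. Klrc1 and Klrc3 are close in sequence, and cross-hybridisation between them was not tested.

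Of 34 chemokine and homing receptors 6 were called lower, on every scaling, and none higher, beside 2.35% of all probe sets called lower on every scaling. The other 28 were not called, and the list's median difference was -0.162. Cxcr4, which holds cells in the bone marrow, went from 9.71 to 10.74 down to 7.94 to 8.30 and fell by 2.52. Ccr2 fell by 2.26, Cxcr3, which binds chemokines induced by interferon, by 2.18, and S1pr1, which guides T cells out of lymph nodes, by 1.85. Of 26 resting and memory genes 6 were called lower, beside 6.92% of all probe sets, and the median difference was -0.028. On every scaling 3 were called, among them the survival gene Bcl2, which fell by 1.94 from 11.20 to 11.78 down to 9.85 to 10.01. Klf2, a factor of quiescent T cells, lay at 7.04 to 7.47 and 7.57 to 7.66 and was not called. Of 25 effector transcription factors 2 were called lower and none higher, a share near the 6.92% of all probe sets: Stat4, which relays IL-12, fell by 2.02, and Zeb1 by 1.17 on the centred values only. Tbx21, the master factor of cytotoxic effectors, lay at 10.19 to 10.63 and 10.52 to 10.60 and was not called. Eomes stayed below 7 and Gata3 lay at 8.87 to 9.29 in both states. Of 26 cytokine receptor and SOCS genes 3 were called lower, beside 6.92% of all probe sets, and none on every scaling: Tgfbr1 (-1.36), Il10ra (-1.18) and Il12rb2 (-1.16).

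The largest share of called members was in the cell cycle list. Of 49 listed genes 41 were called lower, 30 of them on every scaling, and none higher. The median difference was -1.64 against -0.053 over all probe sets and -0.45 over those with a mean of 9 to 10. Of the latter, 383 of 2535 were called lower. In dormant cells 38 of the 49 listed genes lay at 9 or above. Ccnb2, a mitotic cyclin, lay at 10.43, 11.49, 11.01 and 12.15 in dormant cells and at 8.47, 8.27, 9.72 and 8.64 in activated cells. It fell by 2.90 (SE 0.391, adjusted p = 0.000112), 7.48-fold on the centred values. On the other 4 scalings the Ccnb2 difference was smaller, at -2.44 to -2.54. Cenpf, a kinetochore protein gene, fell by 2.81, the mitotic checkpoint kinase gene Ttk by 2.77, the mitotic kinesin gene Kif20a by 2.55 and the proliferation marker Mki67 by 2.02. Outside the list, Nuf2, a kinetochore component, fell by 2.98, and Hmgb2, a chromatin protein gene read by 4 probe sets, by 2.55 to 2.95.

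Levels of these genes varied within both states. The median of the 49 genes was 9.09, 9.98, 9.31 and 10.46 on dormant replicates 1 to 4 and 8.19, 8.06, 9.0 and 8.27 on the activated ones. In the other dormant clones it ranged from 7.11 to 7.58 on sAg1 arrays up to 8.19 to 10.48 on 8uvmo-2 arrays. The highest activated array thus lay just below the lowest dormant one. Dormant replicates 2 and 4 were the high arrays, activated replicate 3 the high one of its group, and single genes followed this order, as Nuf2 did with 9.87, 11.02, 10.26 and 11.47 and then 7.78, 7.32, 9.07 and 8.15. The part of the growth state of the cultures in these values was not tested.

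The promoters of 3 mitotic genes are shown because a CCAAT box, a common element of such promoters, recurs in them. The box counts of these 3 follow from that choice, and the changes of Ccnb1 and Top2a are not given here. The windows are the 250 bases before the start, from RefSeq on GRCm38.p6, along the minus strand in all 3. Capitals mark CCAAT and the cell cycle homology region TTTGAA, on either strand (ATTGG and TTCAAA read backwards).
Ccnb2 (chr9:70421555-70421804): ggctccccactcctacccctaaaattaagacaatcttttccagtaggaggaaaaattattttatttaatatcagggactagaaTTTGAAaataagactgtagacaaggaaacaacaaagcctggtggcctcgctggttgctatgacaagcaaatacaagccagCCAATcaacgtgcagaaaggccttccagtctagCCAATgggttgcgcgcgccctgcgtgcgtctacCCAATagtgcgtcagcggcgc
Ccnb1 (chr13:100786487-100786736): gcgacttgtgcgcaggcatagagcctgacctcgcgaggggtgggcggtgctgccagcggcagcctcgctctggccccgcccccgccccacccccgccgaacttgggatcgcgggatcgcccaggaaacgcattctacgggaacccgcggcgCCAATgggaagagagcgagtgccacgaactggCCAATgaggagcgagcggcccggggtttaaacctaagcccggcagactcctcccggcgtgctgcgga
Top2a (chr11:99024190-99024439): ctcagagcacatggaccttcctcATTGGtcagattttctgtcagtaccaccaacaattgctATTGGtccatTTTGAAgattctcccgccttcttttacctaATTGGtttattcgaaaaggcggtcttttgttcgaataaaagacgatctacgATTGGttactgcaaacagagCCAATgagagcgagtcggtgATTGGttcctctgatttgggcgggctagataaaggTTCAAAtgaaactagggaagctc
Ccnb2 holds 3 CCAAT boxes, Ccnb1 holds 2 and Top2a holds 6, with 1 TTTGAA in Ccnb2 and 2 in Top2a. Of 39 promoters found for the 49 listed genes 30 held a CCAAT box (76.9%), against 35.5% of 15614 promoters of measured genes. TTTGAA was in 25.6% and 13.7%. Among 414 promoters of genes called lower on every scaling the shares were 44.2% and 20.5%. These are counts of letters in a window; binding was not measured.

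Genes of glycolysis and the hypoxia response fell next most often, 16 of 33 called lower, 8 of them on every scaling, and none higher. Of the 33, 31 lay at 9 or above in dormant cells. The list's median difference was -0.997, beside -0.502 over all probe sets with a mean above 10. Of those, 378 of 3147 were called lower. Aldoc, a glycolytic aldolase, lay at 12.51, 12.44, 12.71 and 11.65 and then at 9.43, 9.71, 9.37 and 9.51, and fell by 3.23 (SE 0.181, adjusted p = 5.48e-07). Ankrd37 and Ndrg1, both HIF targets, fell by 2.20 and 2.15, and Ddit4, an inhibitor of mTORC1, by 2.19. Gbe1, the glycogen branching enzyme gene and outside the list, fell by 3.25. The list's median on single arrays was 11.51 to 12.05 dormant and 10.58 to 10.72 activated, with no overlap. Genes of cholesterol and fatty acid synthesis were called lower in 7 of 26, 3 of them on every scaling, beside 6.92% and 2.35% of all probe sets. The median difference was -0.754, and 23 of the 26 lay at 9 or above in dormant cells. Nsdhl and Dhcr7, enzymes of late cholesterol synthesis, fell by 1.79 and 1.61, Stard4, which carries sterols, by 1.5, and Hmgcs1, an early enzyme of the pathway, by 1.46, a call lost after quantile or loess scaling.

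**Figure D3:**
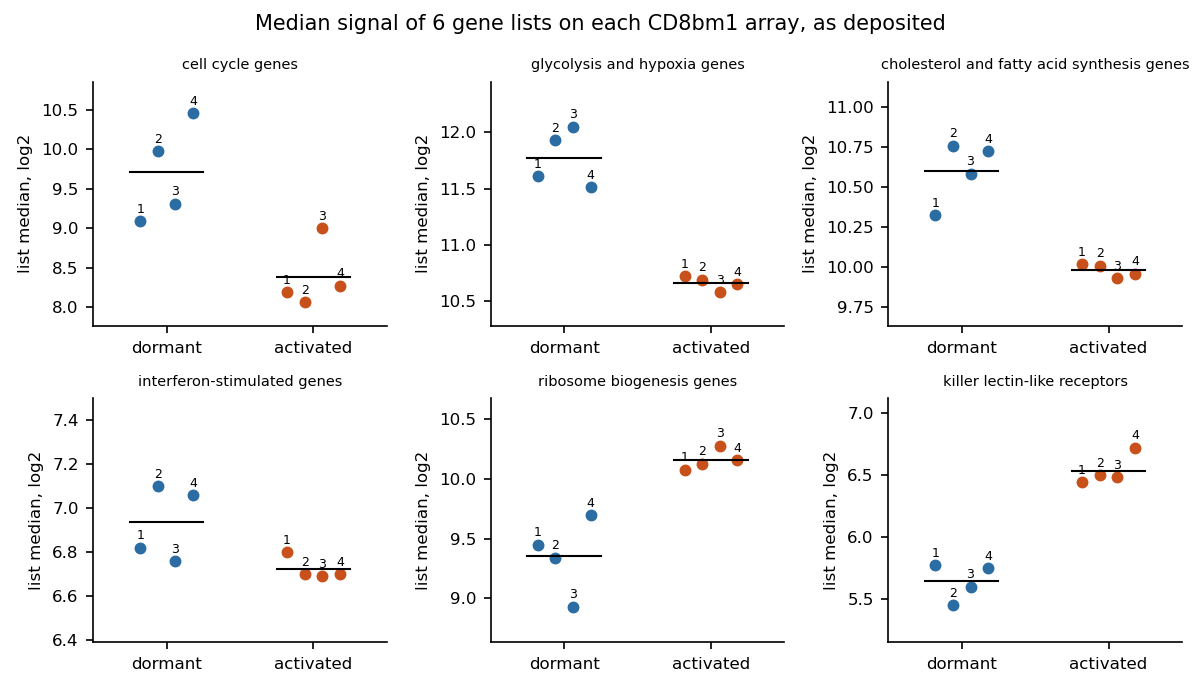
Median deposited log2 signal of 6 gene lists on each CD8bm1 array (points, numbered by replicate) with the mean of 4 arrays (line); each panel has its own scale. Cell cycle medians spread from 9.09 to 10.46 on dormant arrays, while cholesterol medians lie between 9.94 and 10.02 on all activated arrays.

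Of 37 interferon-stimulated genes 10 were called lower, 9 on every scaling, and none higher. Of all probe sets 6.92% were called lower, and 2.35% on every scaling. Ifi209, a DNA-sensor family gene, fell by 2.86, and Psmb9, a subunit of the immunoproteasome, by 2.35 with arrays at 11.80 to 11.96 and 9.83 to 9.96. Samhd1, a dNTP hydrolase, fell by 2.24 and the GTPase gene Gbp4 by 2.0. Their median signal on single arrays was low, 6.76 to 7.10 dormant and 6.69 to 6.80 activated. Ribosome biogenesis genes gave 1 call of 39 on the centred values, Nol6 at 1.09. Yet their list median stood at 8.93 to 9.70 on dormant and 10.08 to 10.28 on activated arrays as deposited. On the deposited values and after quantile, loess or bright-probe-set scaling, 9 of the 39 were called higher each time. No gene of 21 in the unfolded protein response list was called on the centred values, while 2 or 3 were called higher on the other scalings. In the amino acid list 1 of 26 fell, Ddit4, and in the BCL2 family 1 of 16, Bcl2, shares below the 6.92% of all probe sets.

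**Figure D4:**
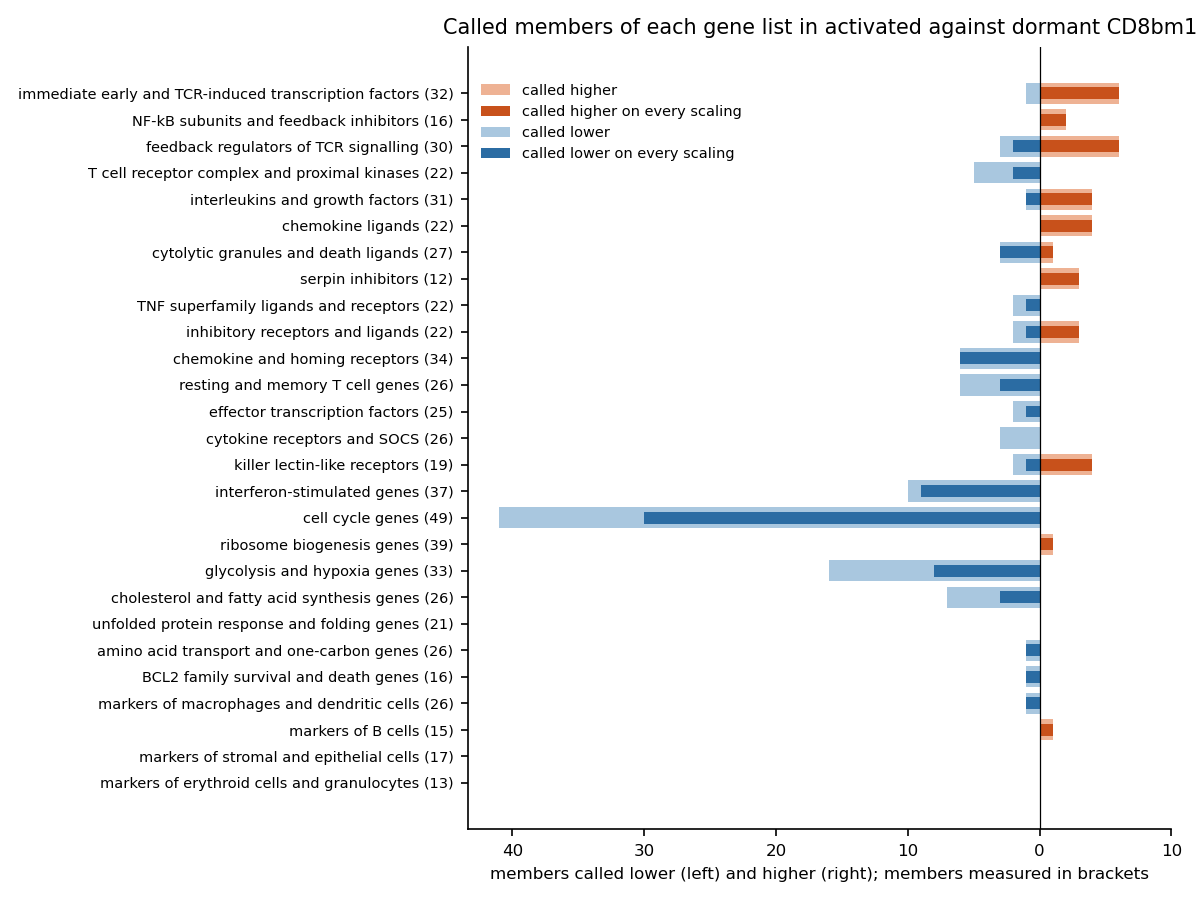
Number of members called higher (right) and lower (left) in activated CD8bm1 for each of 27 gene lists, with the members measured in brackets; the narrow dark bars are members called on all 5 scalings. Cell cycle genes stand out with 41 of 49 called lower and 30 on every scaling.

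Other genes among the largest changes belong to no list. Akr1c18, a reductase that inactivates progesterone, lay at 4.23 to 4.68 and then at 8.25 to 8.73 and rose by 3.65. Hhipl1 rose by 3.55 from 6.58 to 7.13 up to 10.50 to 11.09, and Cdh17, a cadherin of the gut epithelium, by 3.23 to reach 8.48 to 8.77. Ly6a2, a Ly6 family gene, lay at 10.25, 10.27, 9.21 and 10.23 and then at 5.99, 6.99, 6.48 and 6.51, and fell by 3.90 (SE 0.266). Cfap43, a gene of motile cilia on chromosome 19, lay at 7.91, 6.74, 7.57 and 6.35 and then at 3.75 to 3.97. It fell by 3.70, and 4 further probe sets for it were called lower, by differences of -1.41 to -2.86. Dnm1, a dynamin better known from neurons, went from 9.01 to 11.03 down to 7.11 to 7.53 and fell by 3.31. Hsd11b1, which activates glucocorticoids, fell by 3.17, and Ccdc18, a centrosomal protein gene, by 3.42.

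Of the markers of other cell types, 1 was called lower and 1 higher. Cd68, a lysosomal protein best known from macrophages, lay at 9.96, 10.38, 10.57 and 9.78 and then at 7.69 to 8.03 and fell by 2.77; Itgax, named here after its values were seen, differed by -0.72 and was not called. Ebf1, a B cell factor, rose by 1.03 to 8.44 to 9.07, while the other 14 B cell markers stayed below 7. No stromal, epithelial, erythroid or granulocyte marker was called.

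Probe sets for 9 microRNA genes were called. The array reads total RNA through probes to the gene, so a value stands for the primary or precursor transcript rather than the mature form. The mature strands usually taken as the active ones are given for the 5 that bear on known T cell biology, from RefSeq on GRCm38.p6, with the seed (bases 2 to 8, which pair with targets) in capitals. No seed is shared among them.
miR-155-5p: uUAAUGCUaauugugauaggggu
miR-146a-5p: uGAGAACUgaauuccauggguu
miR-132-3p: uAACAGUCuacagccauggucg
miR-18a-5p: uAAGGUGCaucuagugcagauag
miR-15b-5p: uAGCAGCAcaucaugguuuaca
Mir155 (chromosome 16), induced in activated lymphocytes, lay at 6.21, 6.19, 5.78 and 6.07 in dormant and at 8.15, 8.42, 7.93 and 8.28 in activated cells and rose by 1.73 (SE 0.123, adjusted p = 1.93e-06). Mir146 (chromosome 11), the gene of miR-146a and a negative regulator downstream of NF-kB, lay at 4.15, 3.49, 3.48 and 3.51 and then at 6.04, 7.19, 5.66 and 5.69. It rose by 2.08 (SE 0.298), with activated replicate 2 alone above 7. Mir132 rose by 1.19 and Mir18, of the miR-17 cluster on chromosome 14, by 1.28. Mir15b fell by 1.33 and ended at 3.66 to 3.92, a call lost on the deposited values and after centring on bright probe sets. Mir129-2 (1.25), Mir137 (1.10), Mir494 (1.01) and Mir568 (-1.05) were called as well, with no array above 7. The call of Mir494 was lost after quantile or cyclic loess scaling and that of Mir568 on every other scaling.

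The activation of CD8bm1 was then set against the mean activation of the other 4 clones in 1 fit over 38 arrays. A probe set was called where the difference was at least 1, passed the adjusted p and put CD8bm1 outside the range of the others. The SE and p-value of this fit weigh spread between arrays of the same group. They leave out the spread between clones, and CD8bm1 is 1 clone. Of 23410, 289 were called higher (1.23%) and 345 lower (1.47%), 2.71% in all. Without sAg3 455 were called higher and 534 lower.

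Of 31 interleukin and growth factor genes 5 were called lower and 2 higher than in the other clones, and of 22 chemokine ligands 2 were called lower and none higher. Of all probe sets 1.47% were called lower and 1.23% higher. Xcl1 changed by 1.91 in CD8bm1 but by 7.38, 3.43, 7.55 and 7.83 in sAg1, sAg3, 8uvmo-2 and 8uvmo-3, so its difference was -4.64 (SE 0.176, adjusted p = 1.05e-19). For Il3 the difference was -4.60, as the other clones changed by 1.88 to 7.0 against 0.10 here. Olr1, a scavenger receptor gene, differed by -4.32, Ccl9 by -3.45, Lta by -2.92 and the costimulator gene Slamf1 by -2.91. Il2 (-2.03), Csf2 (-1.99), Il13 (-1.56), Irf4 (-1.47) and Nr4a1 (-2.49) were also called lower than in the other clones. Tnfrsf9 differed by -3.19 with a dormant level of 13.28 in CD8bm1 against 6.97 to 12.81 in the other dormant clones. Its activated level was 13.11 against 11.85 to 13.04. Cfap43 differed by -2.94: dormant CD8bm1 at 7.14 was the only group mean above 4.04.

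On the higher side were receptors whose differences were negative in the other clones. Lilr4b, an inhibitory receptor, rose by 1.72 in CD8bm1 and changed by -1.24 to -2.0 in the others, a difference of 3.39 (SE 0.226, adjusted p = 1.84e-13). Its level stayed lower here, 6.29 dormant and 8.42 activated, against 10.86 to 11.85 and 9.49 to 10.76. Ctla4 differed by 3.05 and Klrd1, the CD94 chain, by 2.90; in CD8bm1 itself Klrd1 changed by 0.80, which was not called on the centred values but was called higher on the other 4 scalings. For both genes the other clones changed by -0.50 to -2.78. Hhipl1 and Ccl12 rose by 3.55 and 3.19 here against 0.20 to 1.49 and -0.01 to 1.32 elsewhere, differences of 2.88 and 2.69. Gzmc (2.62), Ifng (2.03), Rgs2 (1.96), Klrk1 (1.89) and Nfkbia (1.30) also differed upward. For Ifng the other dormant clones began at 10.72 to 11.98 and ended at 13.60 to 14.17, close to the top of the range. Ifi206 and Ifi203 differed by 2.87 and 2.73, with dormant levels of 6.12 and 5.39 in CD8bm1 and 7.69 to 11.10 elsewhere. Ripor2 differed by 2.64; it stayed below 7 in CD8bm1.

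Of 26 cholesterol and fatty acid synthesis genes 16 were called lower than in the other clones, beside 1.47% of all probe sets, and none higher. The list's median difference was -1.15 beside -0.001 over all probe sets. List medians in CD8bm1 went from 10.33 to 10.76 dormant to 9.94 to 10.02 activated. In the other clones they lay at 9.04 to 9.87 dormant and 9.66 to 10.57 activated. Among the cell cycle genes 8 of 49 were called lower than elsewhere, beside 1.47% of all probe sets. The cell cycle list's median change was 0.57 in sAg1, -0.661 in sAg3, -1.65 in 8uvmo-2 and -0.827 in 8uvmo-3. For killer lectin-like receptors 7 of 19 differed upward and 1 downward, and for interferon-stimulated genes 7 of 37 and 1. Of all probe sets 1.23% were called higher and 1.47% lower. The interferon list's median change was -0.45 in CD8bm1 and -0.557 to -0.9 in the other clones. Its median level was near background in CD8bm1, at 6.76 to 7.10 dormant and 6.69 to 6.80 activated. In the other clones it lay at 7.71 to 9.03 and 6.96 to 8.01. The median level of the killer lectin-like receptors was 5.45 to 5.77 in dormant CD8bm1.

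**Figure D5:**
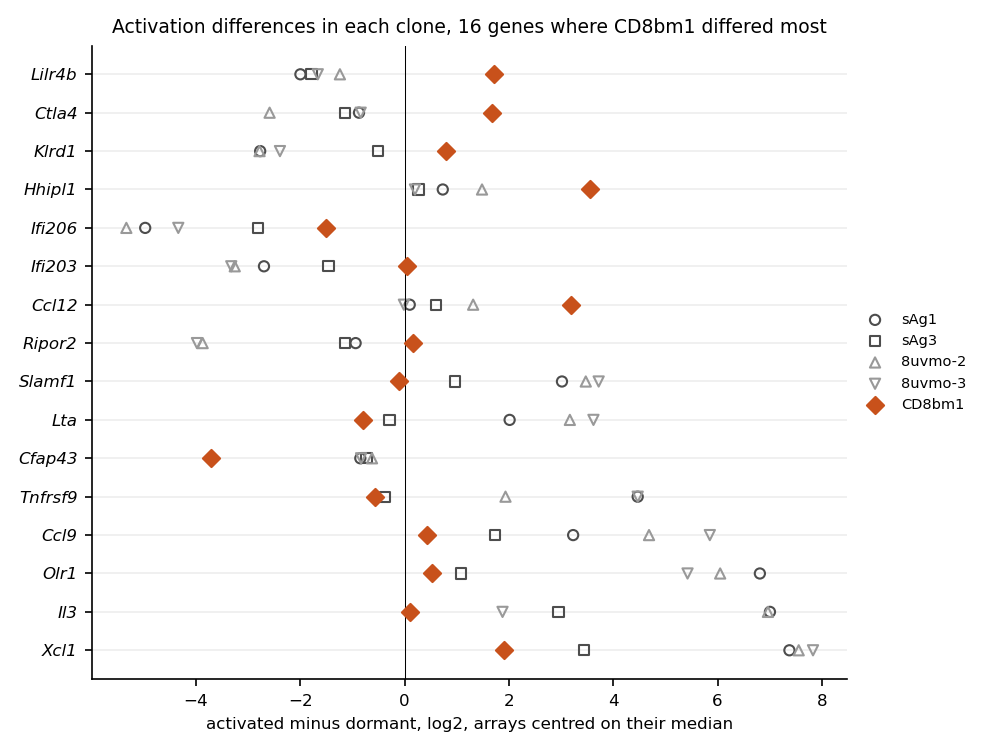
Activated minus dormant difference (log2, arrays centred on their median) in CD8bm1 (filled) and the 4 other clones (open) for the 16 genes with the largest called difference, ordered by it. Il3 lies at 0.10 in CD8bm1 and at 1.88 to 7.0 in the others, and Lilr4b at 1.72 against -1.24 to -2.0.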

How the data were processed

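Total RNA of each sample was labelled with the WT Plus kit and hybridised to an Affymetrix array, per the labels. The deposited values are log2 signals; Partek and RMA are named in the submitters' processing notes, with no version or role given. No measure of background was used. Of 35556 probe sets, 23410 with a gene name were tested (21789 with 1 symbol), and 12146 without one were not used. Each array was centred on its median, and limma 3.58.1 in R 4.3.3 (lmFit, eBayes with a mean trend) compared 4 activated with 4 dormant CD8bm1 arrays; a second fit of 38 arrays gave the difference from the other 4 clones. P-values were adjusted by Benjamini-Hochberg over all probe sets. In simulated data with 200 changed probe sets of 23410 per size, all 200 were recovered at log2 changes of 1.5, 2 and 3 in both designs. Of the unchanged probe sets 3 were called for activation and 2 against the other clones. The simulated arrays had independent noise, no shift at weak signals and no change near the minimum of 1. Calls that depend on the scaling or lie near the minimum were therefore not tested by it. Named are the 12 largest called changes per direction, up to 4 called members per list and direction, 35 key genes, the 8 largest differences to the other clones per direction and called microRNA genes; Ccnb1, Top2a, Gzmd, Gzmf, Itgax and H2-Eb1 were chosen after their values were seen. The members and the 27 gene lists were chosen with earlier results of these data known. Alternatives were 4 other scalings, no minimum difference, the treat test, filters, array weights, a replicate block and leaving out arrays or clones. Promoters and microRNAs came from RefSeq (GRCm38.p6), matched by symbol for 15614 of 19938 genes.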

Additional observations from a re-analysis of the deposited data

Results flagged for a closer look

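For the genes named above, 2 kinds of values stood out. Chance sets apart about 1 in 20 groups of 4 arrays, so single arrays that lie apart from the rest are to be read with that in mind. The array of dormant replicate 1 lay apart for Cd3e at 13.36 (others 13 to 13.05) and Mir146 at 4.15 (others 3.48 to 3.51). The array of dormant replicate 3 lay apart for Ccr2 at 8.31 (others 9.5 to 9.69), Csf2 at 4.75 (others 5.36 to 5.41), Gata3 at 9.29 (others 8.91 to 8.97), Ly6a2 at 9.21 (others 10.23 to 10.27), Nfkbia at 8.86 (others 8.39 to 8.42), Psmb9 at 11.96 (others 11.8), Serpinb9b at 5.97 (others 5.57 to 5.63), Zeb1 at 10.77 (others 10.27 to 10.31) and the median of the feedback regulators of TCR signalling list at 8.32 (others 8.12 to 8.14). The array of dormant replicate 4 lay apart for Irf8 at 7.33 (others 7.89 to 7.93) and Tnfrsf9 at 12.9 (others 13.36 to 13.42). The array of activated replicate 1 lay apart for Mir568 at 2.73 (others 2.9 to 2.92), the median of the resting and memory T cell genes list at 8.62 (others 8.47 to 8.49) and the median of the interferon-stimulated genes list at 6.8 (others 6.69 to 6.7). The array of activated replicate 2 lay apart for Ccl12 at 9.24 (others 10.43 to 10.53), Fosb at 8.6 (others 8.5 to 8.51), Gbp4 at 8.87 (others 8.49 to 8.52), Hmgcs1 at 11.25 (others 11.35 to 11.37), Ifng at 13.33 (others 13.66 to 13.69) and the median of the markers of erythroid cells and granulocytes list at 6.42 (others 6.16 to 6.19). The array of activated replicate 3 lay apart for Ccdc18 at 5.19 (others 4.69 to 4.74), Cenpf at 8.15 (others 7.08 to 7.21), Mir494 at 6.81 (others 6.62 to 6.65) and Tnf at 11.11 (others 11.42 to 11.47). 

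The limma test used here weighs spread between arrays, not between clones. By it, the activation difference of CD8bm1 differed from the mean of the other clones (log2, CD8bm1 minus others). It was higher for Lilr4b (3.39), Ctla4 (3.05), Klrd1 (2.9), Hhipl1 (2.88), Ifi206 (2.87), Ifi203 (2.73), Ccl12 (2.69), Ripor2 (2.64), Gzmc (2.62), Ifng (2.03), Rgs2 (1.96), Klrk1 (1.89), Sla (1.78), Klrc3 (1.46), Nfkbia (1.3), Tigit (1.23), Klrc1 (1.15) and Rasgrp2 (1.12). It was lower for Xcl1 (-4.64), Il3 (-4.6), Olr1 (-4.32), Ccl9 (-3.45), Tnfrsf9 (-3.19), Cfap43 (-2.94), Lta (-2.92), Slamf1 (-2.91), Dnm1 (-2.73), Nr4a1 (-2.49), Aldoc (-2.28), Il2 (-2.03), Csf2 (-1.99), Ndrg1 (-1.98), Slamf7 (-1.79), Gbe1 (-1.78), Nuf2 (-1.74), Nsdhl (-1.62), Il13 (-1.56), Klrg1 (-1.52), Irf4 (-1.47), Kif20a (-1.44), Il12rb2 (-1.34), Dhcr7 (-1.25), Hmgcs1 (-1.19), Cd68 (-1.18), Tnfsf9 (-1.06), Stard4 (-1.02) and Tnfrsf18 (-1.01).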

How the results depend on the processing

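The counts depended on the scaling and the minimum difference. On the deposited values, after quantile normalization, after cyclic loess and after centring on bright probe sets, 1068, 417, 373 and 1297 probe sets were called higher and 626, 806, 954 and 566 lower in activated CD8bm1; the gene lists together held 82, 72, 73 and 91 calls higher, against 35. Without a minimum difference 5920 were called higher and 8539 lower (lists 196 and 249), and the treat test of limma against a difference of 1 called 82 and 375 (46 lower in the lists). Some of the 133 named genes, such as Tnf and Gzma, were not called on the centred values and had no call to lose. Under treat 34 named genes lost their call, among them Il10 (adjusted p = 0.516), Ctla4 (0.367), Prkcq (0.229), Lilr4b (0.111), Mki67 (0.0982), Tigit (0.0889), Serpinb9b (0.0819), Kif20a (0.0786), Klrc3, Klrc1, Klri2, Nr4a1, Il24, Nol6, Ebf1 and all called microRNA genes but Mir155. Leaving out 1 CD8bm1 array gave 217 to 237 higher and 1478 to 1723 lower. Against the other clones there were 2226 higher and 2500 lower without a minimum, 67 and 55 with treat, and 455 and 534 without sAg3; with 1 CD8bm1 array left out there were 274 to 308 and 254 to 447. The replicate block gave 222 and 1620 for activation, and 289 and 383 against the other clones; arrays sharing a number shared no clear deviation (correlations 0.117, -0.122, -0.236 and 0.136), so the numbers were not used as pairs, and for activation the block changed no call of a named gene; against the other clones it kept 280 of the 289 and 340 of the 345 calls. Calls were lost without dormant replicate 1 (Ebf1 at 0.939, Mir494 at 0.986), dormant replicate 3 (Mir494 at 0.989, Nfil3 at -0.806, Nol6 at 0.957), dormant replicate 4 (Rasgrp2 at -0.967), activated replicate 1 (Mir568 at -0.995, Nr4a1 at 0.953), activated replicate 3 (Mir494 at 0.961) and activated replicate 4 (Ebf1 at 0.944), and Cd3e was called without dormant replicate 2, 3 or 4 or activated replicate 4 (-1.005 to -1.022). The cause of these changes was not tested. On the deposited values the sign turned for Cd8a (0.363), Cd8b1 (0.14), Eomes (0.345), Fasl (0.305), Il13 (0.403), Irf4 (0.275), Klf2 (0.348), Lag3 (0.295), Slamf1 (0.293) and Tbx21 (0.207). After quantile normalization the sign turned or the difference reached 0 for Cd4 (-0.015), Cd8a (0.462), Cd8b1 (0.316), Fasl (0.348), Gata3 (0), Gzma (0.079), Ifi203 (-0.108), Il2 (-0.068), Il3 (-0.062), Irf4 (0.326), Klf2 (0.177) and Tbx21 (0.253). After cyclic loess the sign turned for Cd8a (0.457), Cd8b1 (0.236), Fasl (0.338), Gzma (0.056), Il13 (0.174), Il2 (-0.095), Il3 (-0.01), Irf4 (0.332), Klf2 (0.106) and Tbx21 (0.267). After centring on bright probe sets the sign turned for Cd8a (0.404), Cd8b1 (0.181), Eomes (0.386), Fasl (0.346), Il13 (0.444), Irf4 (0.316), Klf2 (0.389), Lag3 (0.336), Slamf1 (0.334) and Tbx21 (0.249). With array weights the sign turned for Gzmb (-0.005). With single arrays left out, differences near 0 crossed it for Eomes (-0.122 to 0.032), Fasl (-0.344 to 0.019), Gzmb (-0.048 to 0.085), Ifi203 (-0.046 to 0.131), Il13 (-0.088 to 0.072) and Slamf1 (-0.245 to 0.065). Signals below 7 limit what can be read from single genes, and 4 arrays a state limit the precision.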
